A study of Mus musculus with 10 samples.

Results

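The respiratory chain genes described here encode the protein complexes with which mitochondria oxidise fuel and make ATP. They were taken by symbol from the probe annotation: every gene whose symbol begins with Nduf, Uqcr, Cox4i, Cox5, Cox6, Cox7, Cox8 or Atp5, together with Sdha, Sdhb, Sdhc, Sdhd, Cyc1 and Cycs. Only probe sets (groups of array probes for 1 transcript) with a single symbol were used, and each gene was represented by its brightest probe set, the one whose mean over all 10 arrays was highest. This gave 92 of the 18193 genes on the array: 34 complex I subunits, 8 complex I assembly factors, 4 complex II subunits, 9 complex III subunits, 19 complex IV subunits, 17 complex V subunits and cytochrome c. The rule also takes in proteins that are not parts of a finished complex: the Ndufaf assembly factors and Cox7a2l, which joins complexes III and IV. Ndufa4 and Ndufa4l2 were counted with complex IV, to which the Ndufa4 protein belongs in spite of its name. The rule used the symbols of the probe annotation. Genes are printed under their RefSeq symbols where matched, and several Atp5 genes have newer names.

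Complex I takes electrons from NADH and complex II from succinate. Both pass them through ubiquinone to complex III, cytochrome c carries them on to complex IV, and complex IV gives them to oxygen. Complexes I, III and IV pump protons across the inner mitochondrial membrane, and complex V, the ATP synthase, lets the protons back and makes ATP. Heart muscle is rich in mitochondria, and some complex IV subunits have an isoform made in heart and skeletal muscle beside one made in most tissues.

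Gene expression was measured in mouse CGR8 embryonic stem (ES) cells, an established line of strain SV129, and in cells differentiated from them. EBIO is an opener of the SK and IK channels, through which potassium leaves the cell when calcium rises. Heart cell formation and pacemaker-like cells are named in the series' title. There were 4 groups: untreated ES cells at passages 25, 26 and 27 (n = 3), ES cells of the same passages given 1 mM EBIO for 3 days (n = 3), cells kept for 5 days as embryoid bodies and then for 10 days without EBIO (n = 2), and cells taken through the same 5 days and then 10 days with EBIO (n = 2). No dose is given in the labels for the differentiated cells. All groups come from 1 cell line, and no sorting or selection of cells is named in the labels. The design text calls the samples of a group independent experiments.

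Values are the authors' log2 RMA values, and every difference below is EBIO minus control on that log2 scale. The ES arrays and the differentiated arrays had been normalised as separate sets, so levels are not compared between the stages. All 8 ES cell markers were called lower with EBIO in ES cells, where the mean of the list was 11.38 to 11.59 on untreated arrays and 7.88 to 8.31 on EBIO arrays. In the differentiated cells, the mean of the 11 cardiomyocyte markers was 8.82 to 8.92 on untreated and 12.79 to 12.83 on EBIO arrays, while fibroblast markers went from 11.91 to 11.93 down to 7.12 to 7.18 and macrophage markers from 10.57 to 10.89 down to 4.28 to 4.44. All 11 cardiomyocyte markers were called higher with EBIO. All 8 macrophage markers were under the array median on every EBIO array, as were 5 of 6 endothelial markers, Lum and Thy1 of the 8 fibroblast markers, and Afp and Alb of the 5 liver and endoderm markers. Those of them that were tested passed the filter only through the untreated arrays, so their calls are not counted. Endothelial markers had a mean of 7.27 on untreated and 4.50 to 4.53 on EBIO arrays, and liver and endoderm markers 9.04 to 9.27 and 5.29 to 5.42. Skeletal muscle markers had a mean of 4.71 to 4.78 on untreated and 4.94 to 5.03 on EBIO arrays. Of these 8, Acta1 (1.26) and Mylpf (1.05) were called higher with EBIO, Ckm was not called (-0.06), and 5, Myod1 and Myog among them, lay under the array median on every differentiated array. Brown fat markers had a mean of 4.38 to 4.50 on untreated and 4.94 to 5.01 on EBIO arrays. Of these 6, 2 were tested, and 5 lay under the array median on every EBIO array. Only 1, Ppargc1a, was called higher, and it passed the filter only through the EBIO arrays. The 3 proliferation markers measured were not called in ES cells and fell in differentiated cells, from a mean of 10.71 to 10.88 on untreated to 10.13 to 10.15 on EBIO arrays.

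In ES cells, EBIO went with lower respiratory chain transcripts. Of 90 genes above the filter on dim signals, 33 fell, 4 rose and 53 were not called at an adjusted p of 0.05 (limma, Benjamini-Hochberg over the 12096 genes tested). Of all genes tested, 21.2% were called lower and 23.5% higher. The median difference of the respiratory chain genes was -0.29, against -0.04 over all genes tested, and 73 of the 90 were negative. Each EBIO array showed the shift: the median over the 90 genes lay 0.28, 0.27 and 0.29 below the untreated mean on the arrays of passages 25, 26 and 27, while the untreated arrays lay within -0.04 to 0.06 of it. With no overlap between the 3 untreated and the 3 EBIO values, 45 of all 92 genes were lower and 6 higher. The 45 include Cox7b2, which was too dim to test. Of all genes tested, 26.8% were apart and lower and 27.9% apart and higher. The falls were mostly moderate, and only Atp5g1, Ndufa6 and Ndufaf1 were called and at least 2-fold lower, where 8.00% of all genes tested were. The count of fallen genes ran from 26 to 38 when 1 array was left out. The 4 rises were less firm: 3 were left without untreated array 27, 2 without EBIO array 26, and 1 without any other single array. The gap between the 3' and 5' probe sets of Actb is a sign of RNA quality. It was 0.42 ± 0.09 (SD, n = 3) in untreated and 0.14 ± 0.06 (SD, n = 3) in EBIO-treated ES cells. For Gapdh the same gap was -0.01 ± 0.07 (SD, n = 3) and 0.02 ± 0.02 (SD, n = 3). The part of RNA quality in these differences was not tested.

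In differentiated cells, respiratory chain transcripts were mostly higher with EBIO. Of 89 genes tested, 68 rose, 4 fell and 17 were not called (limma, Benjamini-Hochberg over 12330 genes). Of all genes tested, 33.3% were called higher and 32.6% lower. The median difference was 0.41, against 0.02 over all genes tested, and 81 of the 89 were positive. On the EBIO arrays the median over the 89 genes lay 0.43 and 0.41 above the untreated mean, and the untreated arrays lay 0.02 to either side of it. Over all 92 genes, the 2 untreated and 2 EBIO values did not overlap for 79 that were higher and 7 that were lower. The 79 include Cox4i2, which was too dim to test. Of all genes tested, 43.4% were apart and higher and 41.0% apart and lower. Again the sizes were moderate: Cox6a2 alone was called and at least 2-fold higher (6.31% of all genes tested), and Cox6b2 and Cox8b at least 2-fold lower (12.4%). When 1 array was left out, 54 to 57 genes rose and 3 to 5 fell. Fitted with all 10 arrays together, 48 rose and 2 fell. Of the genes followed by name in that fit, Atp5e, Atp5g1, Cox4i1, Cox5a, Cox6b1, Cox6b2, Cox7a1, Cox7c, Cox8c, Ndufa4 and Sdhd lost their calls (adjusted p 0.056 to 0.26). Genes named below for another comparison only, such as Ndufa6, Ndufaf7 and Ndufb7, were not followed there and may have lost theirs. Because these are bulk samples, more cells rich in mitochondria and more of these transcripts per cell cannot be told apart. The marker lists given above moved in the same comparison, and their part in it was not tested.

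**Figure D1:**
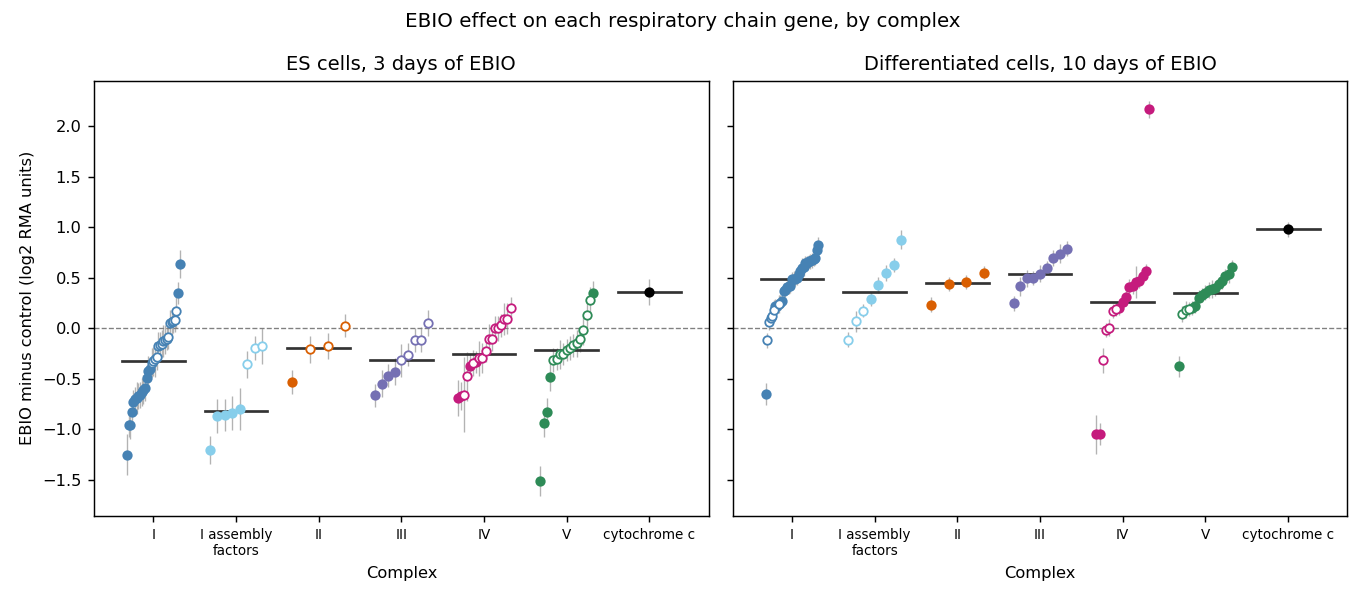
Difference between EBIO and control for each tested respiratory chain gene (log2 RMA units, vertical axis) by complex, in ES cells (left, 3 against 3 arrays) and differentiated cells (right, 2 against 2 arrays). Filled points passed an adjusted p of 0.05, open points did not, grey bars are standard errors and black lines medians: the ES medians lie from -0.82 to 0.36 and those of the differentiated cells from 0.26 to 0.98.

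The difference between the stages was tested itself, as the EBIO effect in differentiated cells minus that in ES cells (limma interaction term over 10 arrays, 13706 genes tested). A positive value does not require a change of direction. The difference was called positive for 63 of 90 respiratory chain genes and negative for 0, where 20.5% of all genes were called positive and 25.0% negative. Without adjustment, 70 were positive and 1 negative at a p under 0.05. The median difference of effects was 0.70, against 0.04 over all genes tested. Cox6a2 (2.17), Atp5g1 (1.81), Ndufaf3 (1.74), Ndufa6 (1.66) and Ndufv1 (1.56) had the largest values. The 2 EBIO comparisons share no arrays. Of the 33 genes that fell in ES cells, 24 rose in differentiated cells, which is 72.7% of the first list and 35.3% of the second. They were 27.0% of the 89 respiratory chain genes tested in both stages, and 4.74% of all genes tested in both did so. Another 40 genes rose in differentiated cells without a call in ES cells. Atp5g3, Cycs, Ndufa12 and Ndufb7 rose in both stages, and Atp5e and Ndufb1 fell in both.

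**Figure D2:**
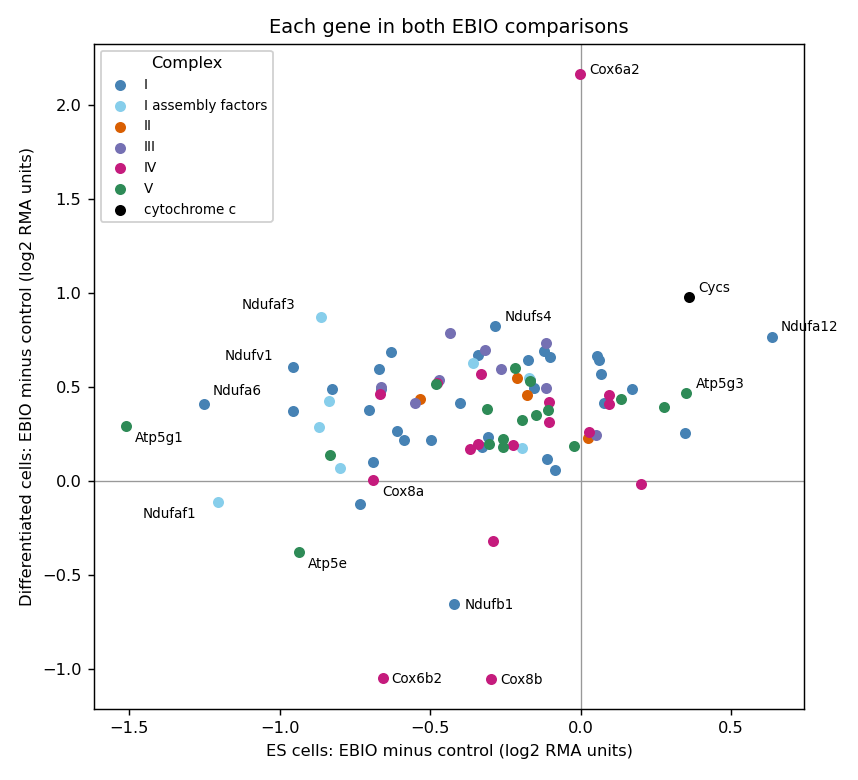
Each point is a respiratory chain gene, placed by its EBIO minus control difference in ES cells (horizontal axis) and in differentiated cells (vertical axis), both in log2 RMA units and coloured by complex. Most points lie left of 0 and above 0, with Cox6a2 alone at the top (0.00 and 2.17) and Cox6b2 and Cox8b at the bottom (both -1.05 in differentiated cells).

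**Figure D3:**
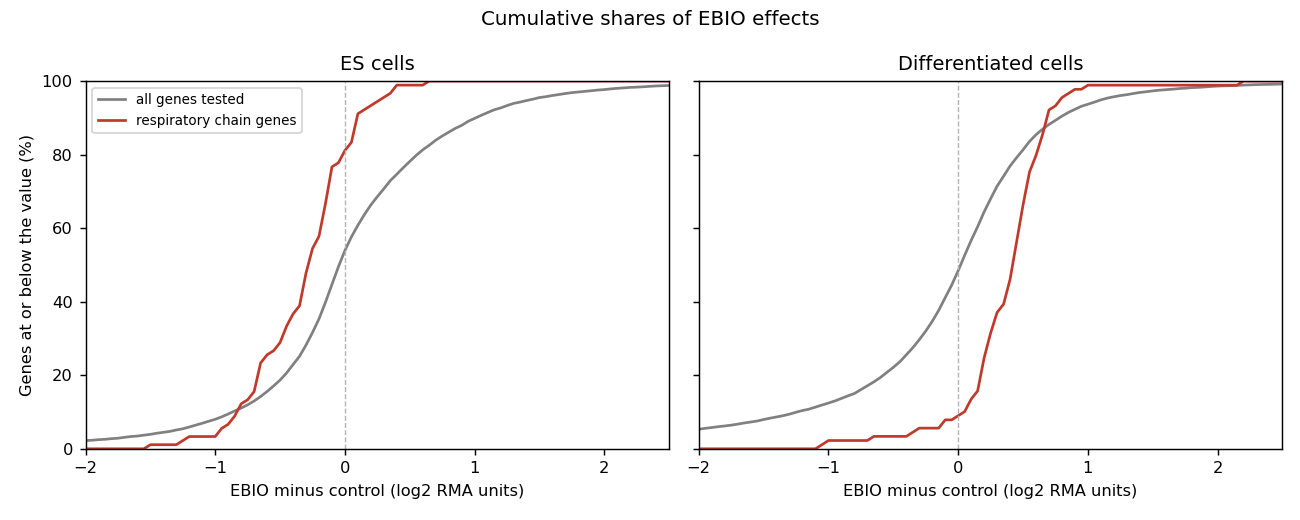
Cumulative share of genes (%, vertical axis) at or below each EBIO minus control difference (log2 RMA units, horizontal axis) for all genes tested (grey) and respiratory chain genes (red). The red curve lies mostly left of the grey one in ES cells (medians -0.29 and -0.04) and right of it in differentiated cells (medians 0.41 and 0.02), and its tails are shorter.

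Many respiratory chain promoters are known to carry sites for nuclear respiratory factor 1 (NRF1), for GABP, and for the oestrogen-related receptors (ERR), factors through which nuclear genes of mitochondria are tuned together. The 250 bases before the annotated start were searched on both strands in RefSeq promoter windows (GRCm38.p6), which held 75 of the 92 genes in 80 windows. The 10-base NRF1 motif (GCGCA, then any base, then GCGC) was found in 16.2% of these windows, 3.74% of all windows and 7.73% of windows of genes tested in differentiated cells. Its 8-base form GCATGCGC, which can overlap it, was found in 11.2%, 2.26% and 4.13%. The GABP motif CCGGAAGT was in 3.75%, 2.88% and 5.49%, and the ERR motif CAAGGTCA in 3.75%, 1.33% and 1.01%. The YY1 motif AAGATGGCG was in 1.25%, 0.603% and 1.10%. Genes with the 10-base NRF1 motif had a median difference of -0.17 in ES cells and 0.39 in differentiated cells, those without it -0.34 and 0.42. Motif matches are a description of the letters and not of binding.

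Promoters are shown for 5 of the genes named below, as examples. Ndufs5 has an NRF1 and an ERR match. Cycs rose in both stages and has the 8-base NRF1 match. Atp5g1 fell most in ES cells. The muscle isoforms Cox7a1 and Cox8b moved in opposite directions in differentiated cells. Cox6a2, the other muscle isoform, had no promoter window. Capitals mark a motif, and each sequence runs 5′ to 3′ on the gene's strand and ends at the base before the start. The windows are chr4:123718187-123718436 (minus strand) for Ndufs5, chr6:50566570-50566819 (minus) for Cycs, chr11:96075632-96075881 (minus) for Atp5g1, chr7:30183921-30184170 (plus) for Cox7a1 and chr7:140900447-140900696 (minus) for Cox8b.
Ndufs5: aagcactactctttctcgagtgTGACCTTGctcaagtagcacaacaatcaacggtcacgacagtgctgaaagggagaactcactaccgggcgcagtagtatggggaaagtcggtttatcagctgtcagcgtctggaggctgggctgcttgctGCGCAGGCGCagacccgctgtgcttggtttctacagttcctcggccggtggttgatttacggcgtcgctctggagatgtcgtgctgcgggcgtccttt
Cycs: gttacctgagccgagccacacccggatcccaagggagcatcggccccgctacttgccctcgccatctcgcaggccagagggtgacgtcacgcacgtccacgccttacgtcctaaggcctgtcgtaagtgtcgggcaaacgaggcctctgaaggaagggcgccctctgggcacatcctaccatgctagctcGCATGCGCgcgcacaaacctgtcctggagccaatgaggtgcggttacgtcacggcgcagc
Atp5g1: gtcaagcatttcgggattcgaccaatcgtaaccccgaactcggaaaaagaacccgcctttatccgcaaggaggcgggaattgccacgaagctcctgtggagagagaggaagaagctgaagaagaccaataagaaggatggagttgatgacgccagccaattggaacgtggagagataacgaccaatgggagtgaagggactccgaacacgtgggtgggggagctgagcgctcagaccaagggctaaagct
Cox7a1: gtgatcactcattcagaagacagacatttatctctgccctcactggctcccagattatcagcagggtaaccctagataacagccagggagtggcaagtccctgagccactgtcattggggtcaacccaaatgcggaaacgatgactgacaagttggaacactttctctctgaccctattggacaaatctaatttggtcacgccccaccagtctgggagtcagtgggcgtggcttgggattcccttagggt
Cox8b: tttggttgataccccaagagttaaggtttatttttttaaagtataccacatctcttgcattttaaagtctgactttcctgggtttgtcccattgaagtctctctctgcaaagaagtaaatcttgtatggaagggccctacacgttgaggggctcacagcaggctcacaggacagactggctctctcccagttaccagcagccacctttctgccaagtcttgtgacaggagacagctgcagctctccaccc
In Ndufs5 the first capital of the NRF1 match lies 98 bases before the start and that of the ERR match, which reads on the other strand, 228 bases before it. In Cycs the first capital lies 60 bases before the start. None of the 5 searched motifs was found in these windows of Atp5g1, Cox7a1 and Cox8b.

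Complex I is the largest complex and the entry point for NADH. In ES cells 15 of its 33 tested subunits fell and 2 rose (median -0.33). Of all genes tested there, 21.2% were called lower and 23.5% higher. In differentiated cells 26 of the 33 rose and 1 fell (median 0.49), against 33.3% higher and 32.6% lower over all genes tested. The difference between the effects was called positive for 24, against 20.5% of all genes tested for it. The core subunits, which carry the flavin and the iron-sulphur clusters, included 6 with a tested probe set, and 5 of them fell in ES cells and 5 rose in differentiated cells. This division, like those within complexes III and V below, was made after the values were seen. Among the 27 tested accessory subunits 10 fell and 2 rose in ES cells, and 21 rose and 1 fell in differentiated cells.

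Ndufv1, the core subunit that binds NADH, read 10.56, 10.75 and 10.39 on the untreated ES arrays and 9.72, 9.50 and 9.61 with EBIO. The groups did not overlap, and the difference was -0.96 ± 0.14 (SE, adjusted p = 0.00057, limma). In differentiated cells it read 11.51 and 11.37 without and 11.99 and 12.11 with EBIO, a rise of 0.61 ± 0.09 (SE, adjusted p = 0.0016, limma). Ndufv1 thus changed direction between the stages. Ndufa6, an accessory subunit, had the largest fall of the complex in ES cells, from 10.40, 10.38 and 9.86 to 8.94, 9.27 and 8.66. That fall was -1.25 ± 0.20 (SE, adjusted p = 0.0011, limma), or 2.38-fold. In differentiated cells both EBIO arrays read 12.04 against 11.62 and 11.65, a rise of 0.41 ± 0.07 (SE, adjusted p = 0.0027, limma). Ndufb3, a small subunit of the membrane arm, followed the same course: it fell by 0.96 in ES cells (9.70, 9.77 and 9.73 to 8.69, 8.92 and 8.72) and rose by 0.37 in differentiated cells.

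The largest rise of a complex I subunit in differentiated cells was that of Ndufs4, an accessory subunit whose loss in mice causes a Leigh-like disease. It read 10.41 and 10.54 without and 11.28 and 11.31 with EBIO, a rise of 0.83 ± 0.08 (SE, adjusted p = 0.00029, limma). Its difference in ES cells was -0.28 (adjusted p = 0.10, limma). Ndufs5, a subunit on the intermembrane side whose promoter is printed above, rose by 0.69, from 10.75 and 10.73 to 11.43 and 11.44. In ES cells its groups overlapped, with a difference of -0.12 (adjusted p = 0.57, limma).

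Ndufa12 and Ndufb7 were the only complex I subunits called higher in ES cells, where 5 others were positive and not called. Ndufa12, an accessory subunit of the matrix arm, read 10.32, 10.45 and 10.70 untreated and 11.04, 11.12 and 11.21 with EBIO. The groups were apart and the rise was 0.63 ± 0.14 (SE, adjusted p = 0.0052, limma); in differentiated cells Ndufa12 rose by 0.77, from 11.95 and 11.91 to 12.70 and 12.69. Ndufb7, which lies on the intermembrane side, rose by 0.35 in ES cells (adjusted p = 0.032, limma) and by 0.25 in differentiated cells. Its ES call was lost when any single array other than untreated array 27 was left out (adjusted p 0.063 to 0.097). Ndufb1, a small membrane-arm subunit, fell in both stages: by 0.42 in ES cells (adjusted p = 0.045, limma), and by 0.65 in differentiated cells, from 8.16 and 8.38 to 7.71 and 7.53. Ndufb4 was under the array median on all 10 arrays and was not tested.

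The complex I assembly factors guide the subunits together and are not part of the finished complex. All 8 were negative in ES cells and 5 fell, with a median of -0.82. In differentiated cells 5 rose and none fell (median 0.36), and the difference between the effects was called positive for 7. Of all genes tested, 21.2% were called lower in ES cells, 33.3% higher in differentiated cells and 20.5% positive for the difference. Ndufaf1, which helps to build the membrane arm, had the largest fall. It read 7.80, 8.03 and 8.17 on untreated arrays and 6.72, 6.86 and 6.81 with EBIO, a difference of -1.21 ± 0.13 (SE, adjusted p = 0.00015, limma). In differentiated cells it differed by -0.11 (adjusted p = 0.25, limma). Ndufaf3, which acts with Ndufaf4 on the arm that binds ubiquinone, read 8.08, 8.34 and 7.84 without and 7.19, 7.40 and 7.08 with EBIO in ES cells. It read 9.08 and 9.27 without and 10.12 and 9.98 with EBIO in differentiated cells. The fall of 0.86 and the rise of 0.88 were both called and the groups did not overlap in either stage. Ndufaf7, a methyltransferase that modifies a core subunit, fell by 0.87 in ES cells and rose by 0.29 in differentiated cells. Ndufaf2, a relative of Ndufa12, and Ndufaf4 were not called in ES cells (-0.36 and -0.17) and rose by 0.63 and 0.55 in differentiated cells. A second, dimmer Ndufaf4 probe set was called lower in ES cells (-0.79, adjusted p = 0.019, limma over all probe sets).

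Complex II, succinate dehydrogenase, belongs to the citric acid cycle as well as the chain. Sdhb, its iron-sulphur subunit, was the 1 of 4 genes to fall in ES cells (21.2% of all genes tested did). It read 10.61, 10.63 and 10.42 untreated and 10.00, 10.06 and 10.01 with EBIO, a difference of -0.53 ± 0.12 (SE, adjusted p = 0.0061, limma). The flavoprotein Sdha and the membrane anchors Sdhc and Sdhd differed by -0.18, -0.21 and 0.03 there and were not called. In differentiated cells all 4 rose, where 33.3% of all genes tested did. Sdhc read 10.79 and 10.75 without EBIO and 11.32 on both EBIO arrays, a rise of 0.55 ± 0.07 (SE, adjusted p = 0.00083, limma). Sdha rose by 0.46, Sdhb by 0.44 and Sdhd by 0.23. The Sdhd call was lost when any 1 of the 4 arrays was left out (adjusted p 0.054 to 0.15) and with all 10 arrays fitted together (adjusted p = 0.12, limma).

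Complex III passes electrons from ubiquinone to cytochrome c. In ES cells 4 of its 9 genes fell and none rose (median -0.32), where 21.2% of all genes tested were called lower and 23.5% higher. In differentiated cells all 9 rose (median 0.54), against 33.3% of all genes tested. Its difference between the effects was called positive for 8, against 20.5% of all genes tested. Uqcrc1, a core protein, had the largest fall in ES cells, from 11.22, 11.27 and 11.09 to 10.53 on all 3 EBIO arrays. This difference was -0.66 ± 0.12 (SE, adjusted p = 0.0016, limma), and in differentiated cells Uqcrc1 rose by 0.50. Uqcrc2, the other core protein, fell by 0.55 and rose by 0.41. Uqcrfs1, the Rieske iron-sulphur protein, had the largest rise in differentiated cells, from 10.94 and 11.02 to 11.76 and 11.78, or 0.79 ± 0.07 (SE, adjusted p = 0.00024, limma). In ES cells it fell by 0.43, from 10.83, 10.80 and 10.56 to 10.30, 10.42 and 10.17. Cyc1, cytochrome c1, was not called in ES cells (-0.26, adjusted p = 0.091, limma) and rose by 0.60 in differentiated cells, where it read 11.44 on both untreated arrays and 12.05 and 12.03 with EBIO. In ES cells it was called lower with averaged probe sets, an intensity trend or all 10 arrays fitted together (adjusted p 0.023 to 0.048, limma). Of the small subunits, Uqcr10 fell by 0.47 in ES cells and rose by 0.54 in differentiated cells, while Uqcr11 and Uqcrq, not called in ES cells (-0.12 and -0.32), rose by 0.74 and 0.70. The mean of the 3 Uqcr10 probe sets in ES cells was -0.22 and not called (adjusted p = 0.22, limma).

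Cycs, the mobile cytochrome c of somatic cells, rose in both stages, as did Ndufa12, Ndufb7 and Atp5g3. In ES cells it read 11.54, 11.63 and 11.87 untreated and 12.09, 12.01 and 12.02 with EBIO. The groups did not overlap, but the rise of 0.36 ± 0.13 (SE, adjusted p = 0.049, limma) was close to the threshold, and it was lost without any single array other than untreated array 27 (adjusted p 0.099 to 0.15). In differentiated cells Cycs read 12.16 and 12.07 without and 13.06 and 13.12 with EBIO. That rise of 0.98 ± 0.07 (SE, adjusted p = 0.00012, limma), or 1.97-fold, was the largest after Cox6a2, and it exceeded the ES rise by 0.62 (adjusted p = 0.011, limma interaction). With the probe sets of Cycs averaged, the ES rise was 0.27 and not called (adjusted p = 0.079, limma). On its own, the next brightest Cycs probe set rose by 0.53 in ES cells (adjusted p = 0.033, limma over all probe sets). The dimmer ones differed by 0.22 and -0.02 there and were not called. The 4 Cycs probe sets differed by 0.98 to 1.48 in differentiated cells.

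Complex IV, cytochrome c oxidase, hands electrons to oxygen and has the most tissue isoforms. In ES cells 4 of its 18 tested genes fell, near the 21.2% of all genes tested, and none rose (median -0.26). In differentiated cells 10 of 17 rose and 2 fell (median 0.26), against 33.3% higher and 32.6% lower over all genes tested. The difference between the effects was called positive for 8 of 18, against 20.5% of all genes tested. Cox7a2l, which joins complexes III and IV into supercomplexes, fell by 0.67 in ES cells, from 11.19, 11.20 and 10.98 to 10.52, 10.59 and 10.26, and rose by 0.47 in differentiated cells, from 11.50 and 11.48 to 11.92 and 11.99. The groups were apart in both stages. Cox6c, a small membrane subunit, read 12.66 and 12.76 without and 13.27 and 13.29 with EBIO in differentiated cells, a rise of 0.57 ± 0.07 (SE, adjusted p = 0.001, limma). Its fall of 0.33 in ES cells was lost when any 1 of the 6 arrays was left out (adjusted p 0.054 to 0.11). Cox5b, a matrix-side subunit, fell by 0.37 in ES cells, a call lost without any single array other than untreated array 27 (adjusted p 0.078 to 0.13), and was not called in differentiated cells (0.17, adjusted p = 0.068, limma). It was called higher there under 5 alternatives, among them averaged probe sets and subtracted array medians (adjusted p 0.008 to 0.041).

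Of the other subunits made in most tissues, Cox5a (0.42), Ndufa4 (0.41) and Cox6b1 (0.26) rose in differentiated cells and differed by -0.11, 0.10 and 0.03 in ES cells, none of them called. The Cox6b1 call was lost without untreated array 1 or either EBIO array (adjusted p 0.077 to 0.08). Cox4i1 rose by 0.20 in differentiated cells, a call lost when any 1 array was left out (adjusted p 0.092 to 0.16), and it differed by -0.34 in ES cells (adjusted p = 0.061, limma). With the passage as a block, Cox4i1 was called lower in ES cells (adjusted p = 0.038, limma). With the replicate number as a block, its call in differentiated cells, like those of Cox7c and Sdhd, was lost (adjusted p 0.092, 0.065 and 0.06, limma). Cox7c was measured by a dim probe set, at 5.72 and 5.95 without and 6.50 and 6.08 with EBIO, and its rise of 0.46 was lost without either untreated array or EBIO array 1 (adjusted p 0.072 to 0.22).

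The muscle isoforms of complex IV did not move as one. Cox6a2, the heart and skeletal muscle form of subunit 6a, read 8.95 and 8.85 without EBIO and 10.99 and 11.14 with it in differentiated cells. This rise of 2.17 ± 0.09 (SE, adjusted p = 1.2e-05, limma), or 4.49-fold, was the largest of any respiratory chain gene, and the second Cox6a2 probe set rose by 2.27. In ES cells the groups overlapped at a mean of 5.61 in each. Its counterpart in other tissues, Cox6a1, read 13.94 and 13.99 without and 13.99 and 13.91 with EBIO in differentiated cells (-0.02, adjusted p = 0.87, limma), values near the top of the array scale.

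Cox7a1, the muscle form of subunit 7a, also rose in differentiated cells, from 7.09 and 7.14 to 7.62 and 7.65, a difference of 0.52 ± 0.07 (SE, adjusted p = 0.0011, limma). It was not called with all 10 arrays fitted together (adjusted p = 0.13, limma), a fit that takes in the wide spread of the untreated ES arrays at 5.70, 6.77 and 6.25. The EBIO ES arrays read 5.76, 5.70 and 5.82, so that the ES groups overlapped, and the difference of -0.48 was not called (adjusted p = 0.14, limma). Without untreated ES array 25 it was -0.75 and called (adjusted p = 0.012, limma). Cox7a2, its counterpart, was not called in either stage (-0.22 and 0.19), although a second Cox7a2 probe set was called in both (-0.32 and 0.34). In differentiated cells Cox7a2 was also called higher with averaged probe sets, the stricter filter, an intensity trend or subtracted array medians (adjusted p 0.0065 to 0.029). In ES cells it was called lower with averaged probe sets or an intensity trend (adjusted p 0.035 and 0.025, limma).

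Cox8b, the muscle form of subunit 8, went the other way. In differentiated cells it read 7.24 and 7.57 without and 6.61 and 6.10 with EBIO. The groups did not overlap, and the fall was -1.05 ± 0.19 (SE, adjusted p = 0.0042, limma), or 2.07-fold. In ES cells the difference was -0.30 with overlapping groups (adjusted p = 0.19, limma). Cox8a, its counterpart, read 12.19 and 12.34 without and 12.24 and 12.30 with EBIO in differentiated cells, a difference of 0.01. Cox8a fell in ES cells, from 10.98, 10.84 and 10.53 to 10.27, 10.22 and 9.79, or by 0.69 (adjusted p = 0.012, limma). In differentiated cells, then, 2 muscle isoforms rose and 1 fell. Cox6a1 and Cox8a were not called there, and the call of Cox7a2 depended on the setting, as did that of Cox7a1.

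**Figure D4:**
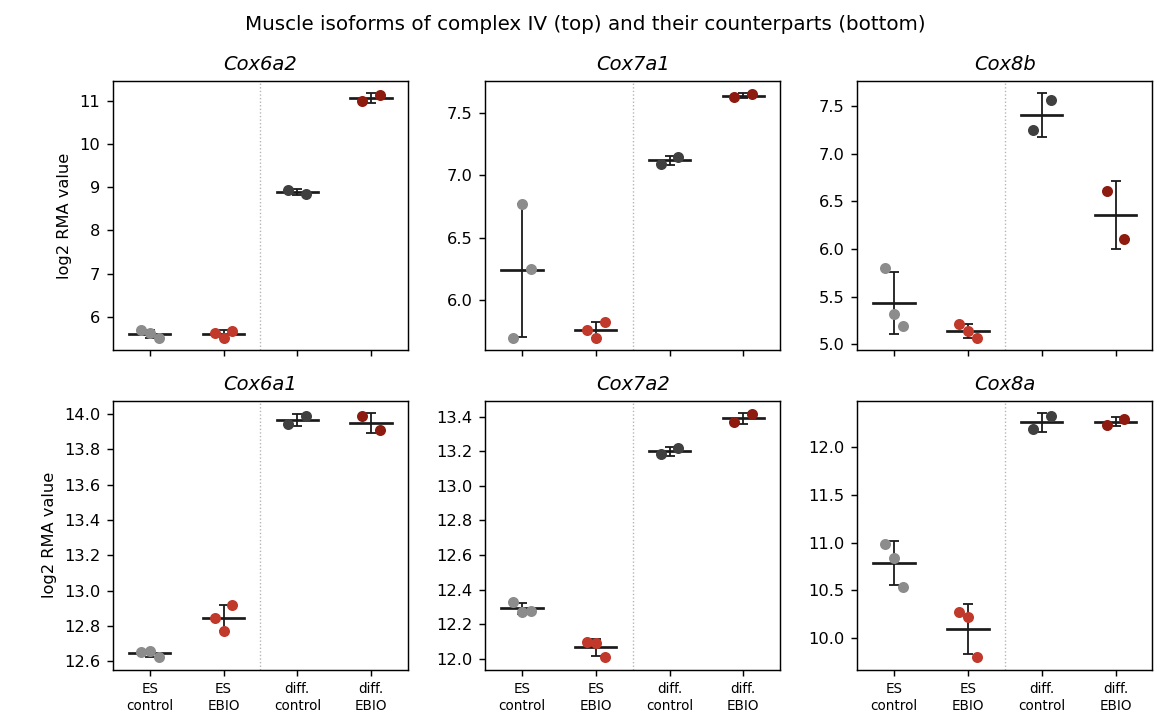
log2 RMA values (vertical axis, a scale of its own in each panel) of the complex IV muscle isoforms Cox6a2, Cox7a1 and Cox8b (top) and of their counterparts Cox6a1, Cox7a2 and Cox8a (bottom) in each group; points are arrays, lines means and bars SD (n = 3 for ES groups, n = 2 for differentiated groups). With EBIO the differentiated means go from 8.90 to 11.06 for Cox6a2, from 7.12 to 7.64 for Cox7a1 and from 7.40 to 6.35 for Cox8b; the dotted line separates array sets that were normalised apart.

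Other tissue isoforms of complex IV gave a mixed picture. Cox6b2, the testis form of subunit 6b, fell by 1.05 in differentiated cells, from 10.41 and 10.55 to 9.57 and 9.29 (adjusted p = 0.00049, limma), a call lost with all 10 arrays fitted together (adjusted p = 0.063, limma). In ES cells it read 10.20, 9.89 and 9.04 untreated and 9.69, 9.11 and 8.36 with EBIO. The groups overlapped because the arrays of passage 27 were the lowest of both. The difference of -0.66 was not called (adjusted p = 0.19, limma), but with the passage as a block it was (adjusted p = 0.0015, limma), and also without untreated array 27 (-0.99, adjusted p = 0.03, limma). Cox8c, a testis form of subunit 8, rose by 0.31 in differentiated cells, a call lost without any single array other than EBIO array 2 (adjusted p 0.08 to 0.13). Ndufa4l2, a relative of Ndufa4 induced by low oxygen, was not called in either stage (-0.29 and -0.32); without EBIO array 1 of the differentiated cells it was called lower (-0.47, adjusted p = 0.018, limma), and in ES cells without untreated array 27 (-0.40, adjusted p = 0.046, limma). Cox4i2, the lung form of subunit 4, had a mean of 5.52 in both ES groups and lay under the array median on all 4 differentiated arrays. Cox7b2 was under the array median on all 10 arrays.

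Complex V, the ATP synthase, couples a rotating ring of c subunits in the membrane to the catalytic F1 head. In ES cells 4 of its 17 genes fell, near the 21.2% of all genes tested, and 1 rose (median -0.22). In differentiated cells 13 rose and 1 fell (median 0.35), and the difference between the effects was called positive for 12. Of all genes tested, 33.3% were called higher and 32.6% lower in differentiated cells, and 20.5% positive for the difference. The 3 genes Atp5g1, Atp5g2 and Atp5g3 encode the same mature c subunit with different import sequences, and in ES cells they parted. Atp5g1 read 10.59, 10.85 and 10.56 untreated and 9.28, 8.92 and 9.27 with EBIO, a fall of 1.51 ± 0.15 (SE, adjusted p = 7.3e-05, limma), or 2.85-fold, the largest of any respiratory chain gene. Atp5g2 fell by 0.83, from 11.56, 11.52 and 11.30 to 10.49, 10.84 and 10.55. Atp5g3 rose by 0.35, from 12.26, 12.28 and 12.22 to 12.66, 12.50 and 12.66 (adjusted p = 0.035, limma), a call lost without any single array other than EBIO array 26 (adjusted p 0.063 to 0.12). In differentiated cells Atp5g3 rose by 0.47 and Atp5g1 by 0.29. The rise of Atp5g1 was lost without untreated array 2 or EBIO array 2 (adjusted p 0.11 and 0.12), and Atp5g2 was not called (0.14).

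In the F1 head, Atp5b, the catalytic beta subunit, rose in differentiated cells from 12.90 and 12.92 to 13.50 and 13.52, or by 0.60 ± 0.07 (SE, adjusted p = 0.00055, limma). Atp5a1, the alpha subunit, rose by 0.54, from 12.64 and 12.61 to 13.06 and 13.26. Neither was called in ES cells (-0.22 and -0.17), though the ES groups of both were apart with EBIO lower. Atp5o, in the stalk that holds the head, fell by 0.48 in ES cells and rose by 0.51 in differentiated cells, where both EBIO arrays read 13.19 against 12.63 and 12.72. Atp5e, the small epsilon subunit, fell in both stages. In ES cells it went from 10.08, 10.32 and 10.07 to 9.12, 9.40 and 9.14, a fall of 0.94 ± 0.14 (SE, adjusted p = 0.00067, limma). In differentiated cells it went from 12.34 and 12.48 to 12.15 and 11.92, and that fall of 0.38 was lost without untreated array 2 or EBIO array 2 (adjusted p 0.11 and 0.098). For 4 respiratory chain genes the differentiated EBIO mean lay within 1 log2 unit of the highest value on the arrays, where a rise may be understated.

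The other genes of the pathway were taken from lists of their own. Beside the counts of these lists, 21.2% of all genes tested were called lower and 23.5% higher in ES cells. In differentiated cells 33.3% of all genes tested were called higher and 32.6% lower. The regulators of nuclear mitochondrial genes and of mitochondrial DNA expression were split: of 18 tested in ES cells 1 rose and 8 fell (median -0.37), and of 20 tested in differentiated cells 8 rose and 4 fell (median 0.10). In differentiated cells the largest rises were those of Esrrg, a receptor of the ERR family, and Ppargc1a, the coactivator known for raising mitochondrial content in muscle. Esrrg read 6.76 and 6.37 without and 9.26 and 9.52 with EBIO, a rise of 2.82 ± 0.15 (SE, adjusted p = 3.5e-05, limma). Ppargc1a read 5.99 and 5.38 without and 8.31 and 8.42 with EBIO, a rise of 2.68 ± 0.20 (SE, adjusted p = 0.00011, limma). Untreated array 2 was under the array median, so Ppargc1a, among the 8 rises counted above, passed the filter only through the EBIO arrays. The groups of both genes were far apart; in ES cells both lay under the array median on all 6 arrays.

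Ppargc1b, the related coactivator, fell by 1.87 in ES cells, from 5.87, 5.65 and 6.50 to 4.07, 4.21 and 4.15. All 3 EBIO values were under the array median. Its fall, among the 8 counted above, was thus tested only through the untreated arrays. In differentiated cells it rose by 1.54, from 7.75 and 7.77 to 9.30 and 9.28, and with Esrra (0.75, from 8.33 on both arrays to 9.12 and 9.05) it was singled out after its values there were seen. Esrrb, an ERR receptor that belongs to the ES cell network, fell by 1.97 in ES cells, from 9.07, 9.56 and 9.19 to 7.44, 7.28 and 7.17. Polg, the mitochondrial DNA polymerase, was the 1 regulator to rise in ES cells (0.79), and it rose by 1.07 in differentiated cells. Pprc1, the further member of this coactivator family, fell in both stages: by 0.79 in ES cells, and by 0.44 in differentiated cells, from 9.23 and 8.96 to 8.64 and 8.67 (adjusted p = 0.011, limma). The DNA-binding factors Gabpa and Nrf1, whose motifs were searched above, were not called higher in either stage. Gabpa, the DNA-binding subunit of GABP, fell by 1.10 in ES cells and by 0.41 in differentiated cells, where it read 10.10 and 10.11 without and 9.69 and 9.71 with EBIO. Nrf1, also singled out after its values were seen, fell by 0.77 in ES cells and was not called in differentiated cells (-0.22, adjusted p = 0.057, limma).

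**Figure D5:**
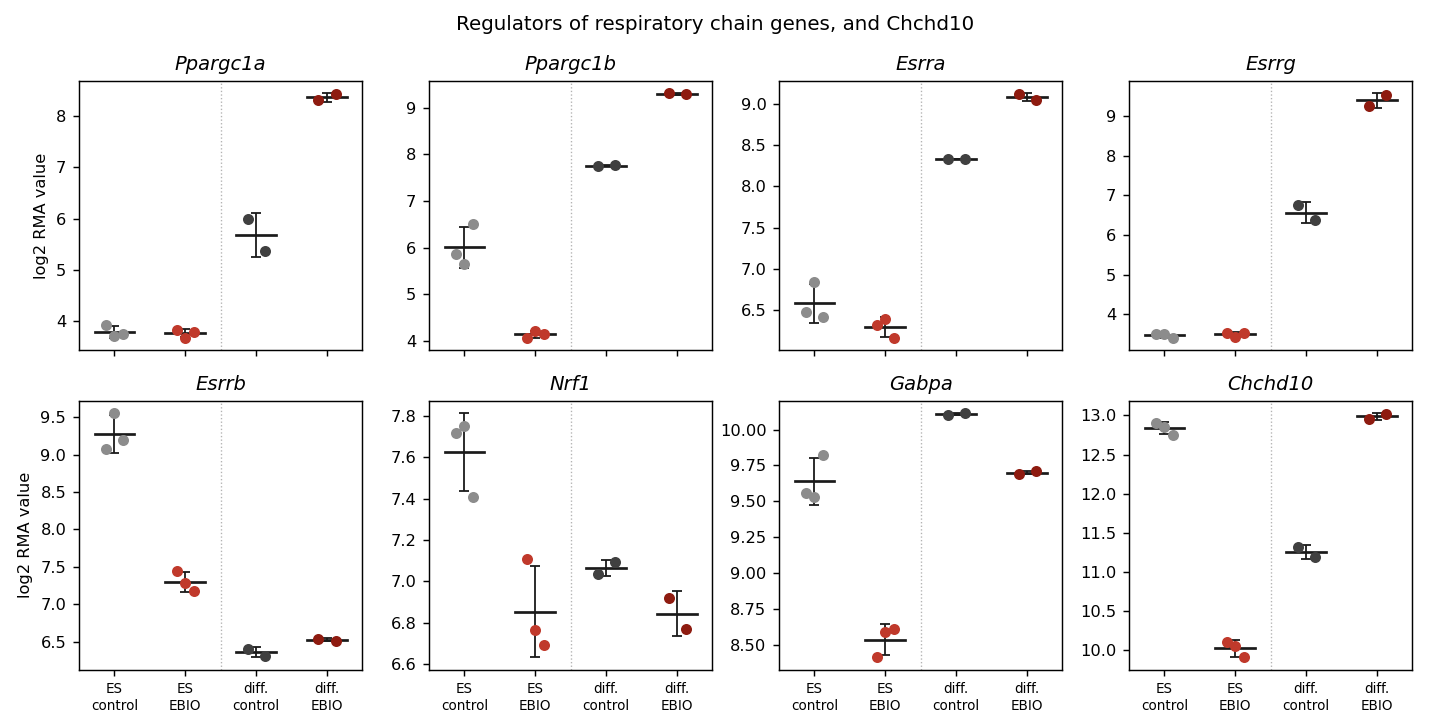
log2 RMA values (vertical axis, a scale of its own in each panel) of 7 regulators of respiratory chain genes and of Chchd10, a mitochondrial intermembrane protein, in each group; points are arrays, lines means and bars SD (n = 3 for ES groups, n = 2 for differentiated groups). With EBIO the differentiated means go from 5.68 to 8.37 for Ppargc1a and from 6.57 to 9.39 for Esrrg, and the ES means from 9.27 to 7.30 for Esrrb and from 12.84 to 10.03 for Chchd10; the dotted line separates array sets that were normalised apart.

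The citric acid cycle, which supplies NADH and succinate to the chain, had more genes lower in ES cells and more higher in differentiated cells. In ES cells 8 of 18 tested genes fell and 1 rose (median -0.33), and in differentiated cells 17 of 18 rose and 1 fell (median 0.59). Pdhb, a subunit of pyruvate dehydrogenase, fell by 1.14 in ES cells, from 10.83, 10.93 and 10.67 to 9.73, 9.65 and 9.65. It rose by 0.82 in differentiated cells, from 10.79 and 10.76 to 11.54 and 11.64. Ogdh, of the oxoglutarate dehydrogenase complex, rose in both stages (0.74 and 1.40). Suclg2, the GTP-forming subunit of succinate-CoA ligase, fell in both (-1.59 and -1.74). Idh3a, the catalytic subunit of isocitrate dehydrogenase, fell by 0.40 in ES cells and rose by 0.95 in differentiated cells.

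Assembly factors outside the membership rule were split in ES cells, where 10 of 35 tested rose and 10 fell (median -0.09). In differentiated cells 19 of 36 rose and 6 fell (median 0.25). Ecsit, which works with Ndufaf1 on the membrane arm of complex I, fell by 1.53 in ES cells, from 8.10, 8.28 and 7.85 to 6.59, 6.49 and 6.55, and rose by 0.62 in differentiated cells. Nubpl, which serves complex I iron-sulphur clusters, fell by 1.21 in ES cells and by 0.23 in differentiated cells. Ttc19 of complex III and Cox20 of complex IV rose in ES cells by 1.00 and 0.76 and in differentiated cells by 0.52 and 0.65. In differentiated cells Timmdc1 (0.89) and Sdhaf3 (0.84) had the largest rises. In ES cells Timmdc1 rose by 0.45, and Sdhaf3 was not called (0.03). Sco2, a copper chaperone of complex IV, had the largest fall in differentiated cells (-0.85) and was not called in ES cells (-0.20). Tmem126b, a partner of Ndufaf1 and Ecsit, followed it (-0.55). Its ES fall of 1.18, among the 10 counted, went to values under the array median on all 3 EBIO arrays. It was tested there only through the untreated arrays.

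Among the genes for energy transfer at the mitochondrial membranes, 3 of 15 rose and 5 fell in ES cells (median -0.06), and 7 of 14 rose and 2 fell in differentiated cells (median 0.33). Among the 5 falls in ES cells was Ckmt1 (-1.35), under the array median on all 3 EBIO arrays. It was tested there only through the untreated arrays, and is named for that reason. Chchd10, a protein of the intermembrane space, had the largest change of the list in both stages. In ES cells it fell by 2.81 ± 0.12 (SE, adjusted p = 1e-06, limma), from 12.90, 12.85 and 12.76 to 10.11, 10.06 and 9.91. In differentiated cells it rose by 1.73 ± 0.08 (SE, adjusted p = 1.9e-05, limma), from 11.32 and 11.19 to 12.96 and 13.02. Ckb, a cytosolic creatine kinase, fell in both stages (-2.17 and -0.99), as did Atpif1, an inhibitor of the ATP synthase (-0.82 and -0.30). Slc25a4, the ADP/ATP carrier of heart and muscle, rose by 1.03 in ES cells and by 0.76 in differentiated cells. Mfn1, which fuses mitochondria, rose by 0.95 and 0.46, and its relative Mfn2 by 0.89 in each stage.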

How the data were processed

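Total RNA of 10 samples was biotin-labelled with a one-cycle kit and hybridised to Affymetrix arrays, per the labels' protocols. The deposited values are log2 expression values that the authors made with RMA, per the submitters' processing notes; the version is not given in the sources used here. RMA compresses dim signals and so understates their differences. The quantiles of any pair of arrays differed by at most 0.0931 within the 6 ES arrays and 0.0497 within the 4 differentiated arrays, and by at least 0.910 between them. Of 45101 probe sets, 34945 had 1 symbol and covered 18193 genes. Genes were tested if they lay above the array median on a number of arrays no smaller than the smallest group compared.

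Group means were fitted with limma 3.58.1 (R 4.3.3), each EBIO comparison on its own arrays and the difference between the effects on all 10, with Benjamini-Hochberg adjustment over all genes tested and a threshold of 0.05. The script was tested on simulated data. No read depth applies to arrays, and their number limits the precision. The members and lists were chosen with earlier results of these data known. Named were, per complex and comparison, the 3 called genes with the largest rise and the 3 with the largest fall whose groups did not overlap, the complex II genes, Cyc1, Cycs, the complex IV and c-subunit isoforms, the 5 largest differences between the effects, and 2 genes per direction of each other pathway list (the cell marker and proliferation lists, which the rule also covers, are given by levels and counts); genes outside this rule are said to be. In ES cells the replicate numbers mark shared passages, per the labels, and same-passage deviations correlated at 0.328, 0.231 and 0.618; in differentiated cells, where the labels tie the numbers to nothing, they correlated at -0.129. Alternatives were another choice of probe set, filter, scaling, variance model or samples, the replicate block, and leaving out each array.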

Additional observations from a re-analysis of the deposited data

Results flagged for a closer look

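The effect of EBIO differed between ES cells and differentiated cells, by the interaction test, for 63 of the 90 respiratory chain genes tested. The values below are the EBIO effect in differentiated cells minus that in ES cells, on the log2 scale, for the named genes past the threshold; each is positive. In complex I they were 1.66 for Ndufa6, 1.56 for Ndufv1, 1.33 for Ndufb3, 1.11 for Ndufs4 and 0.82 for Ndufs5. For its assembly factors they were 1.74 for Ndufaf3, 1.16 for Ndufaf7, 1.09 for Ndufaf1, 0.99 for Ndufaf2 and 0.72 for Ndufaf4. In complex II they were 0.97 for Sdhb, 0.76 for Sdhc and 0.64 for Sdha. In complex III they were 1.22 for Uqcrfs1, 1.16 for Uqcrc1, 1.02 for Uqcrq, 1.01 for Uqcr10, 0.96 for Uqcrc2, 0.86 for Cyc1 and 0.85 for Uqcr11. Cycs had 0.62. In complex IV they were 2.17 for Cox6a2, 1.13 for Cox7a2l, 1.00 for Cox7a1, 0.90 for Cox6c, 0.70 for Cox8a, 0.54 for both Cox4i1 and Cox5b, and 0.42 for Cox7a2. In complex V they were 1.81 for Atp5g1, 0.99 for Atp5o, 0.97 for Atp5g2, 0.82 for Atp5b, 0.71 for Atp5a1 and 0.56 for Atp5e. For Atp5e both effects were negative (-0.94 and -0.38), and for Cycs both were positive.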

How the results depend on the processing

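Across the alternatives no direction of a called value reversed. In ES cells the count of genes called higher was 4, ran from 1 to 3 without 1 array and was 2 without both passage-27 arrays, an alternative chosen after seeing the data; the median of -0.29 became -0.25 with array medians subtracted and ran from -0.29 to -0.25 without 1 array. In differentiated cells the median of 0.41 became 0.48 with array medians subtracted, and the count called lower fell from 4 to 2 with all 4 groups fitted together. For the difference between the effects, the count called negative was 1 when probe sets of a gene were averaged, with array medians subtracted and with the replicate block, and 0 to 1 without 1 array. Its median was 0.63 with averaged probe sets, 0.73 after quantile normalisation of all arrays, and 0.65 to 0.71 without 1 array; its count called positive ran from 48 to 66. On their own, the second Cox7a2 probe set was called in ES cells (-0.32, adjusted p = 0.034, limma) and in differentiated cells (0.34, adjusted p = 0.03, limma), and a dim Cox8a probe set was not called in ES cells (-0.34, adjusted p = 0.082, limma). The probe sets of a gene had 1 sign for 40 of 52 genes in ES cells and 46 of 52 in differentiated cells; only Ndufb8 had a probe set called in the opposite direction, a dim one in differentiated cells (-0.72). The cause of these changes was not tested.

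With the replicate number as a block, 4 genes were called higher and 41 lower in ES cells, 59 and 4 in differentiated cells, and 67 and 1 for the difference between the effects. Among the genes named for the comparison at hand, the block changed no calls but those of Cox4i1, Cox6b2, Cox7c and Sdhd given above. With the numbers crossed in differentiated cells, an alternative chosen after seeing the data, 67 were higher and 5 lower. For the genes named for each comparison, 564 of the values under the alternatives in ES cells kept direction and call, 17 gained the call (7 genes) and 34 lost it (6 genes). In differentiated cells 501 kept it, 11 gained it (3 genes) and 40 lost it (11 genes). All 95 values of the 5 largest differences between the effects kept it. Signal limits Cox7b2 and Ndufb4, which were too dim to test.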

Other observations

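The array also holds a probe set for ND5, a complex I subunit encoded by mitochondrial DNA, which the membership rule does not take in and which was looked at after the other values were seen. In differentiated cells ND5 read 11.72 and 11.73 without and 12.68 and 12.75 with EBIO, a rise of 0.99 ± 0.07 (SE, adjusted p = 9.2e-05, limma). In ES cells it read 10.25, 10.15 and 9.94 untreated and 10.38, 10.18 and 9.39 with EBIO; the groups overlapped and the difference of -0.13 was not called (adjusted p = 0.70, limma). Its effects differed between the stages by 1.12 (adjusted p = 0.019, limma interaction).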
